A study of Mus musculus with 2 samples.

Results

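The Slc25 family of mitochondrial carriers was examined in bone marrow cells of wild-type mice cultured without and with RANKL. The members were all protein-coding genes of the GENCODE vM21 annotation whose symbol begins with Slc25a, 47 of 21951 protein-coding genes. Members of the family under other symbols, such as Ucp2, are not among these and are left out of the family sums and ranks below. RNA was sequenced in 2 libraries, 1 per condition. The library named M came from cells given M-CSF alone, the growth factor on which macrophage precursors depend, and the library named MR from cells given M-CSF and RANKL, the cytokine that drives these precursors to become osteoclasts. The labels describe 2 days with M-CSF followed by 2 days with M-CSF and RANKL, and give genotype WT for both libraries. The day on which RNA was taken, the number of animals, and whether cells were pooled are not given in the sources used here. With 1 library per condition there was no replicate check, so that every difference below is a difference between these libraries. In RNA from mixed cultures, fewer cells of a type and less RNA per cell cannot be told apart.

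Carriers of this family sit mostly in the inner mitochondrial membrane and move nucleotides, phosphate, carboxylates, amino acids, cofactors and metal ions between the matrix and the cytosol. ADP/ATP exchange and phosphate uptake feed ATP synthase, and the oxoglutarate/malate and aspartate/glutamate carriers form the malate-aspartate shuttle, which brings reducing equivalents into the matrix. Osteoclasts are rich in mitochondria and use much ATP to secrete acid onto bone.

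The values were TPM (transcripts per 1000000 transcripts), a level scaled for transcript length and for the total of the library, summed over the assembled transcript loci that fell on each gene. The log2 ratio of MR to M was taken after adding 1 to each TPM, for genes that reached a TPM of 1 in either library. A gene was counted as higher or lower in MR when this ratio lay above 1 or below -1. Plain ratios are given with a 95% Wilson interval from an approximate number of read pairs, which covers counting error only. Aligned bases amounted to about 3.63 Gb in M and 2.98 Gb in MR. All 8 osteoclast markers examined were higher in MR, their TPM summing to 121 in M and to 24835 in MR, and Oscar, Dcstamp, Ocstamp and Calcr had no locus in M. The TPM of 6 macrophage markers summed to 20246 in M against 7890 in MR, most of it from Lyz2 (16035 and 4535 TPM), whose locus, like that of Itgam, is shared with another gene. Of these markers 2 were lower in MR, 4 lay inside the thresholds, and Csf1r had 697 TPM in M and 872 TPM in MR. Neutrophil markers, 7 of 7 with a locus in both libraries, summed to 1362 TPM in M and 950.0 TPM in MR, so that the labelled bone marrow cells included RNA of the granulocyte lineage in both conditions. The 13 protein-coding genes of mitochondrial DNA summed to 11148 TPM in M and 46157 TPM in MR.

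A locus was assembled for 37 of the 47 carriers, in both libraries for 35 and in MR alone for Slc25a34 and Slc25a47. Of the 10 carriers without a locus of their own, Slc25a44, a carrier of branched-chain amino acids, lay inside the locus given to Pmf1 in both libraries. That locus covered 3552 exon bases of Slc25a44 in M and 3553 in MR, and its level, 83.9 TPM in M and 87.2 TPM in MR, could not be divided between these genes. The other 9, with no locus in either library, were Slc25a2 and Slc25a18, paralogues of the ornithine and glutamate carriers, the oxodicarboxylate carrier Slc25a21, the uncoupling-protein-like Slc25a27, the basic amino acid carrier Slc25a29, the ADP/ATP carrier of the germ line Slc25a31, the ATP-Mg/phosphate carrier Slc25a41, and Slc25a48 and Slc25a54. Of 36 carriers above the minimum level, 8 were higher in MR (22.2%), beside 19.4% of all 12027 protein-coding genes. The 8 carriers were Slc25a4, Slc25a42, Slc25a5, Slc25a39, Slc25a47, Slc25a15, Slc25a3 and Slc25a11. Only Slc25a37 and Slc25a53 were lower in MR (5.56%), beside 11.7% of all genes. The counts over all genes were 2328 higher and 1404 lower in TPM, and 1937 higher and 1765 lower after median-of-ratios scaling, which moved the median log2 ratio of all genes from 0.19 to 0.01. With that scaling the carriers numbered 7 higher and 3 lower of 36, beside 16.1% and 14.7% of all genes. The median log2 ratio of the carriers was 0.14, with a range from -1.45 to 2.27. Above 0 were 21 of 36 carriers, beside 7157 of all 12027 genes, a similar share. Other genes with an Slc symbol had 47 higher and 32 lower of 184, with a median of 0.22. The share of carriers higher in MR was thus near that of all genes, and the share lower in MR rests on 2 genes.

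**Figure D1:**
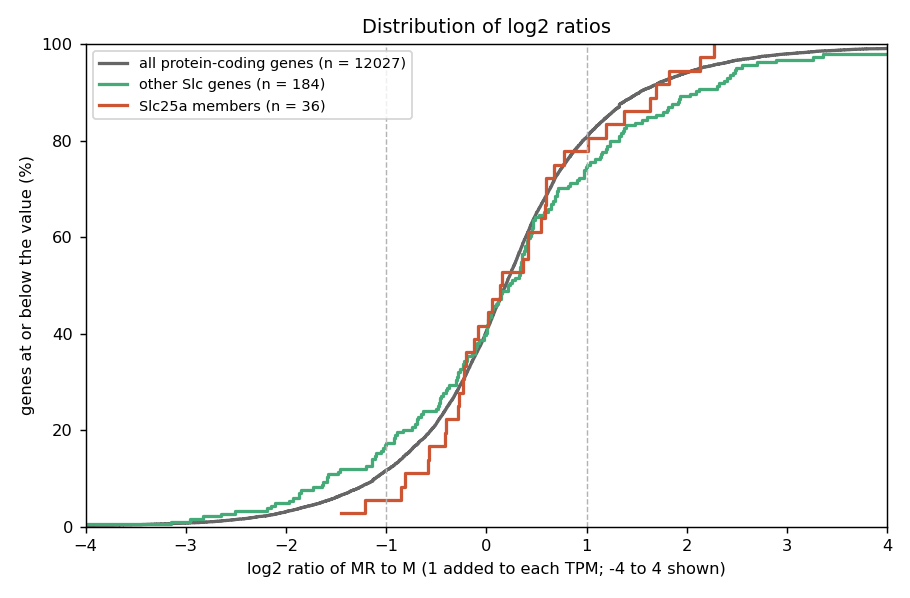
Cumulative share of genes, in percent, at or below each log2 ratio of MR to M, for the Slc25 carriers, other Slc genes and all protein-coding genes that reached a TPM of 1 in either library, with the thresholds at -1 and 1 as dashed lines. The carriers lie around a median of 0.14, close to 0.19 for all genes, with 8 above the upper threshold and 2 below the lower.

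Most of the difference in level lay in the abundant carriers. Of the 9 that reached a TPM of 50 in either library, 5 were higher in MR and none lower, and their median log2 ratio was 1.01. In all 3416 genes at that level 20.9% were higher and 14.6% lower, with a median of 0.17. Among the 18 carriers whose highest TPM was from 10 to under 50, 1 was higher and 1 lower, with a median of -0.02, beside 15.1% and 8.46% of all 4904 genes at that level and a median of 0.20. Among the 9 carriers from 1 to under 10 TPM, 2 were higher and 1 lower, with a median of 0.36, beside 23.5% and 13.2% of all 3707 genes and a median of 0.20. The family summed to 1912 TPM in M and 4303 TPM in MR, 2.25 times as high. The phosphate carrier Slc25a3 and the ADP/ATP carriers Slc25a4 and Slc25a5 together held 53.0% of the family sum in M and 71.1% in MR, and accounted for 85.5% of the difference in the sum. The remaining carriers summed to 898 TPM in M and 1244 TPM in MR, and their median log2 ratio was 0.05.

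**Figure D2:**
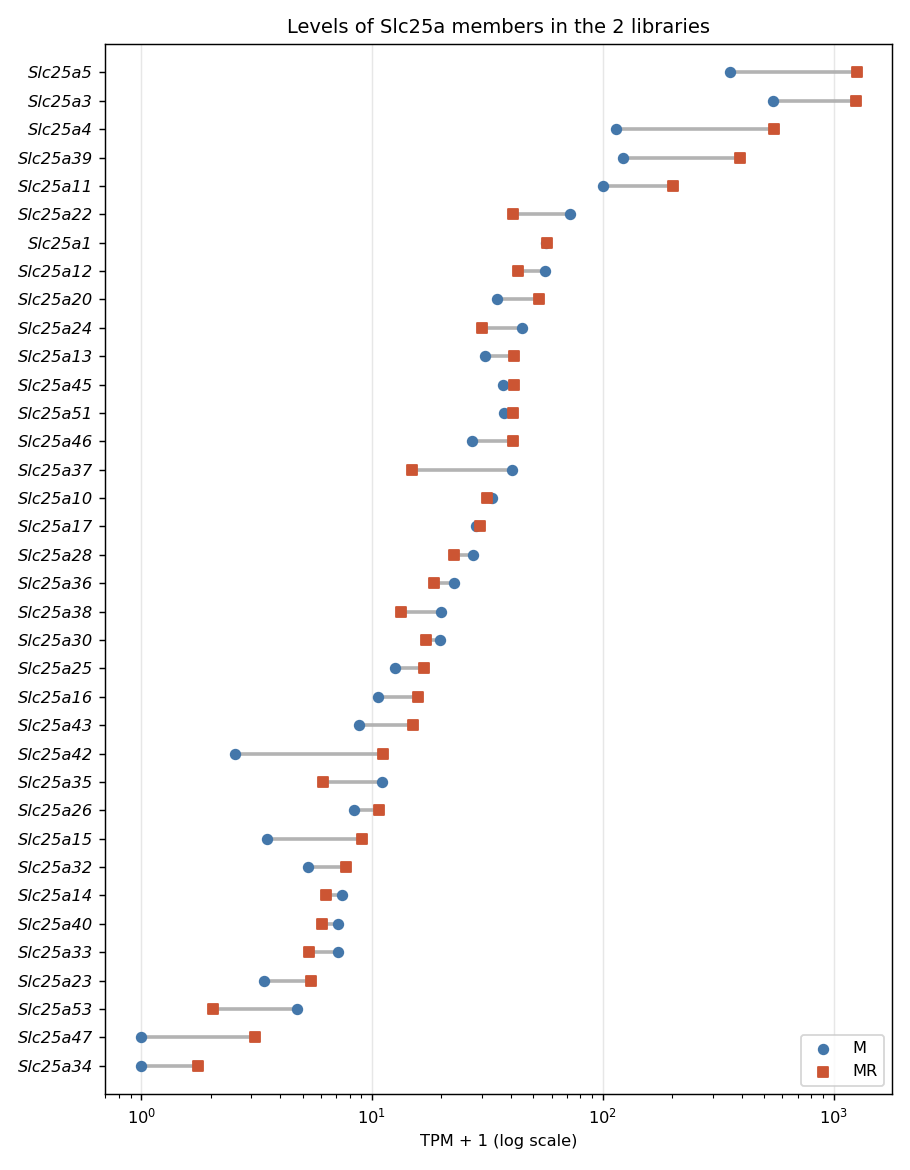
TPM + 1 on a log axis in M and MR for 36 of the 37 carriers with a locus, ordered by the higher of both levels, with circles for M and squares for MR. A value of 1 on this axis means that no locus was assembled in that library, which holds for Slc25a34 and Slc25a47 in M. Slc25a3 and Slc25a5 stand at the top in both libraries, at 544 and 356 TPM in M and 1247 and 1259 TPM in MR.

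Promoter sequence is shown for the 5 carriers higher in MR for which at least 100 bases upstream lay outside annotated exons and whose assembled 5′ end in MR lay near the RefSeq start. The sequences are from RefSeq on GRCm38.p6, written 5′ to 3′ on the strand of the gene, within the 250 bases before the start. Capitals mark matches, on either strand, to an ETS core (CCGGAAG), a CRE (TGACGTC), an AP-1 site (TGANTCA), a GC box (GGGCGG) or a CCAAT box (CCAAT).
Slc25a3, chr10:91124060-91124217, minus strand: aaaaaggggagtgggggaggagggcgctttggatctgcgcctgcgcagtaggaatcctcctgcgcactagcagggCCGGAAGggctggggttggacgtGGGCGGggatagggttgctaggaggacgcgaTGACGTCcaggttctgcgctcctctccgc
Slc25a5, chrX:36795347-36795596, plus strand: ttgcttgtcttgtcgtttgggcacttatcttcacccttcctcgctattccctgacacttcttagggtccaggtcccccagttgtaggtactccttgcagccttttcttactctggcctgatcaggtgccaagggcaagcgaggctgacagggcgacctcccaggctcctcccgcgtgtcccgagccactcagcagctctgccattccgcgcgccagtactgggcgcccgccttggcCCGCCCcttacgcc
Slc25a39, chr11:102407545-102407767, minus strand: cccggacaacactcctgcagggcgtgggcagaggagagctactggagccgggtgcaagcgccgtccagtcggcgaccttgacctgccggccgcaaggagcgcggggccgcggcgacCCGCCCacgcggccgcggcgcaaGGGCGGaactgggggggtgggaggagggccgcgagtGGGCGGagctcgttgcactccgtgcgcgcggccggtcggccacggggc
Slc25a11, chr11:70647059-70647234, minus strand: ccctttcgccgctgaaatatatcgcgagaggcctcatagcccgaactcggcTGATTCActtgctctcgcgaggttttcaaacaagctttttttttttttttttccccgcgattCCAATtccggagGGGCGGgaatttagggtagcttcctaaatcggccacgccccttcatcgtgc
Slc25a42, chr8:70212306-70212531, minus strand: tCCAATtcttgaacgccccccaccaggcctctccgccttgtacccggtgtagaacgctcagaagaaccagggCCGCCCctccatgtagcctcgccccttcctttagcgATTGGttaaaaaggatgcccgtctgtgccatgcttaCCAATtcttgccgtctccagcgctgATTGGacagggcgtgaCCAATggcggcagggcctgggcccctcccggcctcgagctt

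Of 36 carriers with a promoter in the RefSeq table, 25 held a GC box (69.4%), beside 32.7% of all 32851 promoters, which include those of genes of every type. For each carrier 1 promoter was taken, the one nearest to its assembled 5′ end in MR where it had a locus. The 32851 promoters, of 27025 symbols, were not selected in this way, so that the shares of all motifs compare unlike sets. A GC box was present in 6 of the 8 carriers higher in MR and in 15 of the other 21 carriers above the minimum level, so that it did not single out the former. The ETS core was present in 6 of the 36 carriers and 6.91% of all promoters, and among the carriers higher in MR it was found in Slc25a3 and Slc25a4. The CRE was present in 3 carriers, Slc25a3 among them, and in 2.78% of all promoters. AP-1 matches were present in 2 carriers, Slc25a11 and Slc25a13, and in 6.75% of all promoters. The NFAT core TGGAAA was found in 5 of 36 carriers, of which Slc25a15 alone was higher in MR, and in 18.6% of all promoters. The NRF1 core GCATGCG was found in 2 of 36 carriers and the ERR site AAGGTCA in 1, none of them above the minimum level, and in 3.02% and 4.08% of all promoters. An E-box (CACGTG) was found in 5 of 36 carriers, none of them higher in MR, and in 6.02% of all promoters. The promoter of Slc25a42 printed above held 5 CCAAT matches, and CCAAT was present in 33.8% of all promoters. The window of Slc25a4 overlapped its own first exon, and the RefSeq table used here has no entry for Slc25a37. A match is a string of letters in the window and no measure of binding.

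Among adenine nucleotide and phosphate carriers, 3 of 6 above the minimum level were higher in MR and none were lower, beside 19.4% and 11.7% of all genes, and the group summed to 1071 TPM in M and 3107 TPM in MR. Slc25a4 (ENSMUSG00000031633.4, chr8:46206797-46211284, minus strand, mm10), the ADP/ATP carrier of heart and muscle, had 113 TPM in M and 552 TPM in MR. The level in MR was 4.87 times that in M (4.57 to 5.19). Pairs were reckoned over 1925 bases, so that this interval is too narrow. The loci of Slc25a4 held 1702 exon bases in M and 1735 in MR. With 1 added to each TPM its log2 ratio of 2.27 was the highest of the family, whereas with 0.1 added Slc25a47 (4.46) and Slc25a42 (2.64) lay above it (2.28). Slc25a5 (ENSMUSG00000016319.3, chrX:36795651-36798807, plus strand), the ADP/ATP carrier most widely expressed in proliferating cells, had 356 TPM in M and 1259 TPM in MR. Its ratio was 3.53 (3.37 to 3.70), with a log2 ratio of 1.82. Slc25a5 remained the more abundant of the pair, with 75.9% of their summed TPM in M and 69.5% in MR, while the share of Slc25a4 was 24.1% in M and 30.5% in MR. Among all protein-coding genes with a locus, Slc25a4 stood at percentile 89.5 in M and 97.7 in MR, and Slc25a5 at percentile 96.5 in M and 99.1 in MR. Processed copies of Slc25a5 exist in the genome, and how reads that match several places were counted is not given in the sources used here.

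Slc25a3 (ENSMUSG00000061904.12, chr10:91116574-91124059, minus strand) imports phosphate, and also copper, into the matrix. Among the 47 carriers it was the most abundant in M, with 544 TPM, and the second most abundant in MR, with 1247 TPM. Its ratio was 2.29 (2.21 to 2.38), with a log2 ratio of 1.20, and of 1.005, just above the threshold, after median-of-ratios scaling. It held 28.4% of the family sum in M and 29.0% in MR, nearly the same part of a larger sum. The ATP-Mg/phosphate carriers, which adjust the adenine nucleotide pool of the matrix, stayed inside the thresholds. Slc25a24 had 43.7 TPM in M and 29.0 TPM in MR, Slc25a25 had 11.6 and 15.7, and Slc25a23 had 2.40 and 4.43. Slc25a24 was the most abundant of these in both libraries, with 75.8% of their sum in M and 59.0% in MR.

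Of the di- and tricarboxylate carriers, Slc25a11 (ENSMUSG00000014606.14, chr11:70644196-70647479, minus strand), which exchanges oxoglutarate for malate, had 99.5 TPM in M and 202 TPM in MR. The ratio was 2.03 (1.87 to 2.20) and the log2 ratio 1.01, just above the threshold, and it was 0.82 after median-of-ratios scaling. The citrate carrier Slc25a1, which exports citrate for fatty acid and sterol synthesis, had 55.5 TPM in M and 56.1 TPM in MR. The dicarboxylate carrier Slc25a10 had 32.3 TPM in M and 30.4 TPM in MR. Both lay within 0.1 of 0 on the log2 scale.

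Carriers of amino acids, carnitine and glutathione included 2 higher in MR of 8 above the minimum level (25.0%, beside 19.4% of all genes) and none lower (beside 11.7%), and their median log2 ratio was 0.09, beside 0.19. Slc25a39 (ENSMUSG00000018677.9, chr11:102402985-102407946, minus strand), which carries glutathione into mitochondria, had 121 TPM in M and 393 TPM in MR. Its ratio was 3.24 (3.02 to 3.48) and its log2 ratio 1.69. The locus in M reached from 102403148 to 102414013, its 5′ end lying 6476 bases upstream of that in MR, where the locus ended at 102407537. Its paralogue Slc25a40 had 6.14 TPM in M and 5.06 TPM in MR, so that Slc25a39 held 95.2% of the pair in M and 98.7% in MR. Slc25a15 (ENSMUSG00000031482.9, chr8:22375551-22398597, minus strand), which brings ornithine into the matrix, had 2.50 TPM in M and 8.07 TPM in MR. The ratio was 3.23 (2.32 to 4.51) and rested on few reads, about 48 pairs in M against 122 in MR. The glutamate carrier Slc25a22 had 71.0 TPM in M and 40.0 TPM in MR, a ratio of 0.56 (0.50 to 0.63) and a log2 ratio of -0.81, inside the threshold in TPM and at -1.12 in coverage per aligned Gb.

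The aspartate/glutamate carriers, partners of Slc25a11 in the malate-aspartate shuttle, lay inside the thresholds in TPM. Slc25a12 (aralar) had 55.5 TPM in M and 41.8 TPM in MR, a ratio of 0.75 (0.70 to 0.81). Its pairs were reckoned over 6351 bases, whereas its loci held 4121 exon bases in M and 4427 in MR. The interval is thus too narrow. Slc25a13 (citrin) had 29.8 TPM in M and 40.2 TPM in MR, with a log2 ratio of 0.42 in TPM and of -0.69 in coverage per aligned Gb. Their sum was 85.3 TPM in M and 82.0 TPM in MR, and the share of Slc25a12 was 65.0% in M and 50.9% in MR. In coverage (M and MR) Slc25a12 had 81.9 and 45.6 and Slc25a13 had 39.4 and 19.0, without that lower share. The locus of Slc25a13 in M reached to 5992417, beyond the annotated gene, whereas that in MR ended with the gene at 6041218. The carnitine/acylcarnitine carrier Slc25a20, which brings fatty acyl groups in for oxidation, had 33.9 TPM in M and 51.7 TPM in MR, a ratio of 1.53 (1.32 to 1.76). The glycine carrier Slc25a38, which serves heme synthesis, had 19.0 TPM in M and 12.3 TPM in MR, with a log2 ratio of -0.59.

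**Figure D3:**
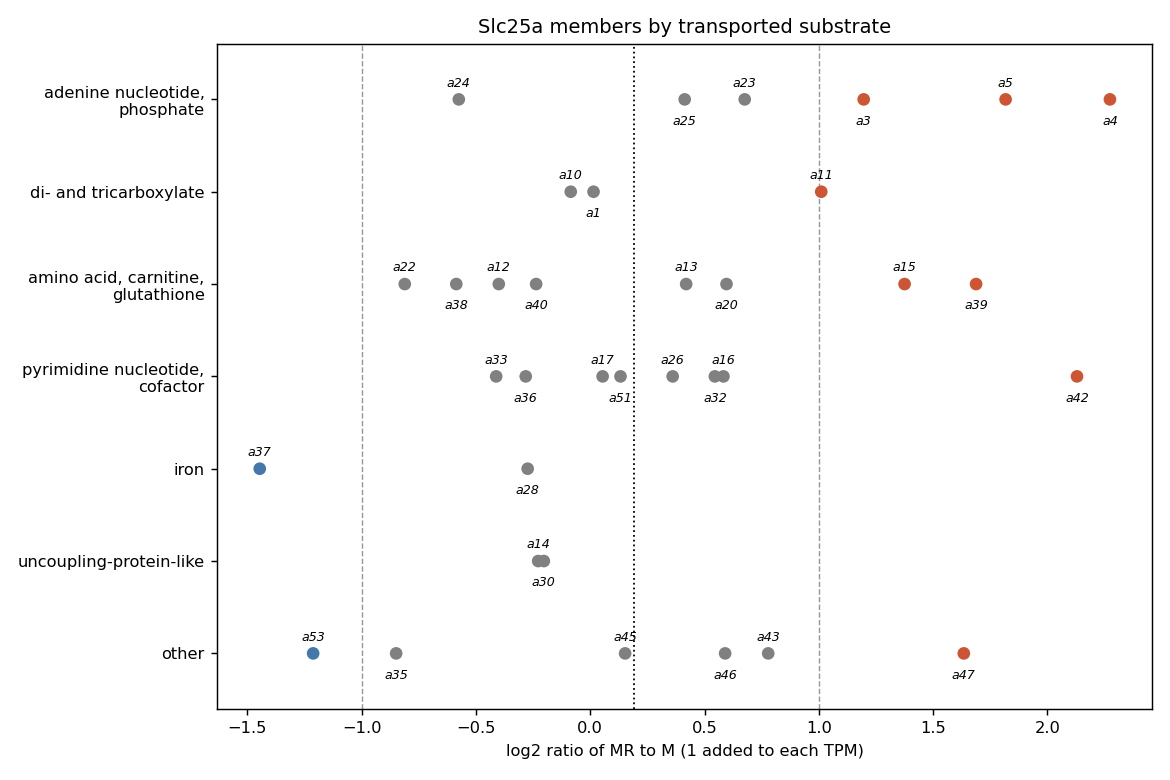
Log2 ratios of MR to M of 35 of the 36 carriers above the minimum level, grouped by transported substrate, with the thresholds at -1 and 1 as dashed lines and the median of all genes, 0.19, as a dotted line (Slc25 is left off the symbols). With 1 added to each TPM, Slc25a4 lies highest at 2.27 and Slc25a37 lowest at -1.45, and most carriers lie between the thresholds.

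All 9 carriers of pyrimidine nucleotides and cofactors were above the minimum level. Of these 1, Slc25a42, was higher in MR (11.1%, beside 19.4% of all genes) and none lower (beside 11.7%). Slc25a42 (ENSMUSG00000002346.16, chr8:70184340-70212305, minus strand), a carrier of coenzyme A, had 1.54 TPM in M and 10.1 TPM in MR. The ratio of 6.57 had a wide interval (4.36 to 9.89), from about 27 pairs of reads in M against 138 in MR, and the log2 ratio was 2.13. In M the locus reached only from 70186435 to 70189562 and held 30.2% of the exon bases of the gene, whereas in MR it held 99.1%. The pairs were reckoned over a transcript of 3081 bases, whereas the locus in M held 1808 exon bases. The number of pairs in M is thus too high and the interval too narrow. Slc25a16, related to Slc25a42, had 9.57 TPM in M and 14.8 TPM in MR, and its share of the pair was 86.1% in M and 59.4% in MR. The other carriers of this group lay between log2 ratios of -0.41 and 0.55. Among them were the peroxisomal cofactor carrier Slc25a17, the S-adenosylmethionine carrier Slc25a26, the folate carrier Slc25a32, the pyrimidine nucleotide carriers Slc25a33 and Slc25a36, and the NAD carrier Slc25a51. Slc25a51 was the most abundant of the group in both libraries, with 36.2 TPM in M and 39.8 TPM in MR.

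The mitoferrins carry iron into the matrix for heme and iron-sulfur cluster synthesis, and both had log2 ratios below 0. Slc25a37 (mitoferrin-1, ENSMUSG00000034248.7, chr14:69241848-69285112, minus strand) had 39.5 TPM in M and 13.9 TPM in MR. The ratio was 0.35 (0.31 to 0.40) on about 923 pairs of reads in M against 256 in MR, and the log2 ratio was -1.45. This was the lowest of the family with 1 added to each TPM, whereas with 0.1 added Slc25a53 (-1.75) lay below Slc25a37 (-1.50). Slc25a28 (mitoferrin-2) had 26.5 TPM in M and 21.7 TPM in MR, a log2 ratio of -0.27. The order of the pair thus differed between the libraries, with Slc25a37 at 59.9% of their sum in M and 38.9% in MR. Slc25a37 is known for its high level in erythroid cells. Of 8 erythroid markers, 4 had no locus in either library, Hbb-bt, Alas2 and Klf1 among them, and the others summed to 8.71 TPM in M and 4.64 TPM in MR. Neutrophil markers were also lower in sum in MR (1362 and 950.0 TPM), and the part of either cell type in the values of Slc25a37 and Slc25a38 was not tested.

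**Figure D4:**
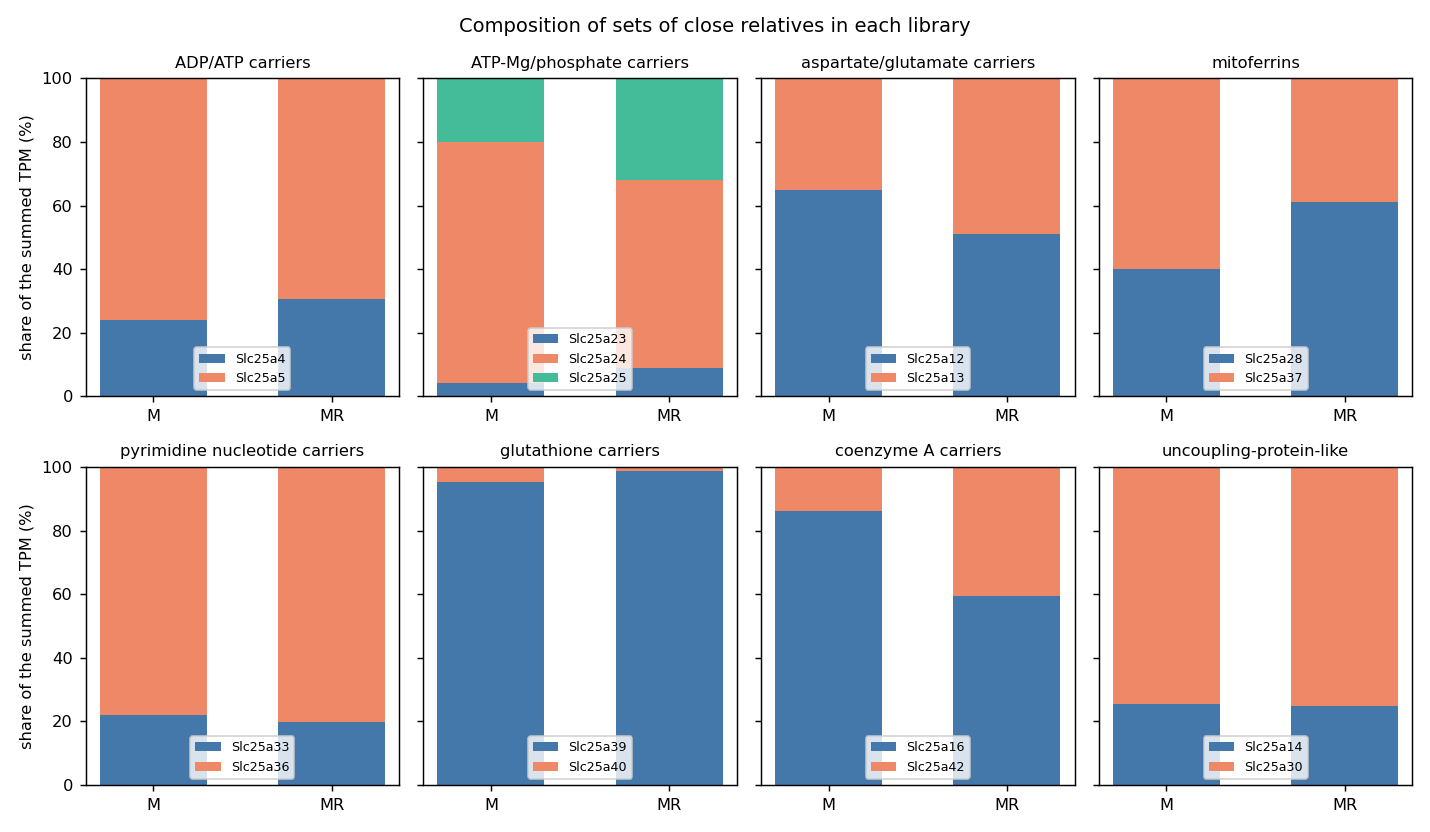
Stacked bars of the share of each carrier, in percent, in the summed TPM of its closest relatives in M and in MR, for 8 sets with at least 2 carriers that had a locus. Slc25a37 and Slc25a28 change places, from 59.9% and 40.1% in M to 38.9% and 61.1% in MR, whereas Slc25a5 leads Slc25a4 in both libraries.

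The uncoupling-protein-like carriers Slc25a14 and Slc25a30 had log2 ratios of -0.23 and -0.20. Among carriers placed in no role group, Slc25a47 had no locus in M and 2.11 TPM in MR, spread over 2 loci, with a log2 ratio of 1.63. Slc25a53 had 3.72 TPM in M and 1.04 TPM in MR, a ratio of 0.28 (0.15 to 0.52) from about 53 and 12 read pairs. The pairs were reckoned over 2567 bases, whereas the locus in MR held 981 exon bases, so that 12 is too high and the interval too narrow. The calls of Slc25a47 and Slc25a53 both rested on low levels. The log2 ratio of Slc25a47 was 0.95 in FPKM, and that of Slc25a53 was -0.90 in FPKM and -0.53 when only the locus with the highest TPM was used. Slc25a46, a protein of the outer membrane that acts in mitochondrial shape, had 26.0 TPM in M and 39.7 TPM in MR, a log2 ratio of 0.59. Slc25a45 had 36.1 TPM in M and 40.2 TPM in MR, whereas its coverage per aligned Gb gave a log2 ratio of -1.50. Slc25a43 had 7.79 TPM in M and 14.1 TPM in MR, Slc25a35 had 10.1 and 5.14, and Slc25a34 had no locus in M and 0.754 TPM in MR. The value of Slc25a35 in M joined 5.80 TPM from a locus of 429 bases without strand and 4.26 TPM from a locus on its strand. In MR its loci held 2.42 and 2.72 TPM, so that the lower value in MR rests on the locus without strand.

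Genes that bring carriers into the inner membrane, or that carry other solutes across the mitochondrial membranes, were read alongside. Of 13 genes of the import route, from the outer membrane receptors to the small Tim chaperones and the Tim22 insertase, 4 were higher in MR (30.8%, beside 19.4% of all genes) and none lower (11.7% of all genes), and the median log2 ratio was 0.75, beside 0.19. The small Tim protein Timm10 had 25.4 TPM in M and 90.9 TPM in MR, the insertase core Timm22 had 15.3 and 53.0, the outer membrane channel Tomm40 had 42.6 and 137, and Timm8a1 had 8.68 and 27.3. The receptor Tomm20 and the small Tim protein Timm10b, named after their values were seen, had log2 ratios below 0, at -0.62 and -0.51. Of 19 other mitochondrial transporters and channels, 5 were higher (26.3%) and 1 lower (5.26%), with a median of 0.76, beside the same 19.4%, 11.7% and 0.19 of all genes. Abcb8 had 13.6 TPM in M and 64.0 TPM in MR, the pyruvate carrier subunit Mpc2 had 58.6 and 233, the ion exchanger Letm1 had 38.3 and 134, and the outer membrane channel Vdac1 had 133 and 410.0. Mcub, a subunit that dampens the calcium uniporter and the only one lower in MR, had 64.1 TPM in M and 25.1 TPM in MR. Mcub was named after its values were seen. Of the family members and relatives outside the symbol rule, Ucp2 had 772 TPM in M and 1028 TPM in MR, a log2 ratio of 0.41. In M it lay above each of the 47 carriers. Mtch2, an outer membrane relative of the carriers, had 51.7 TPM in M and 145 TPM in MR, and Mtch1 had 140.1 and 113. Ucp1 and Ucp3 had no locus.

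**Figure D5:**
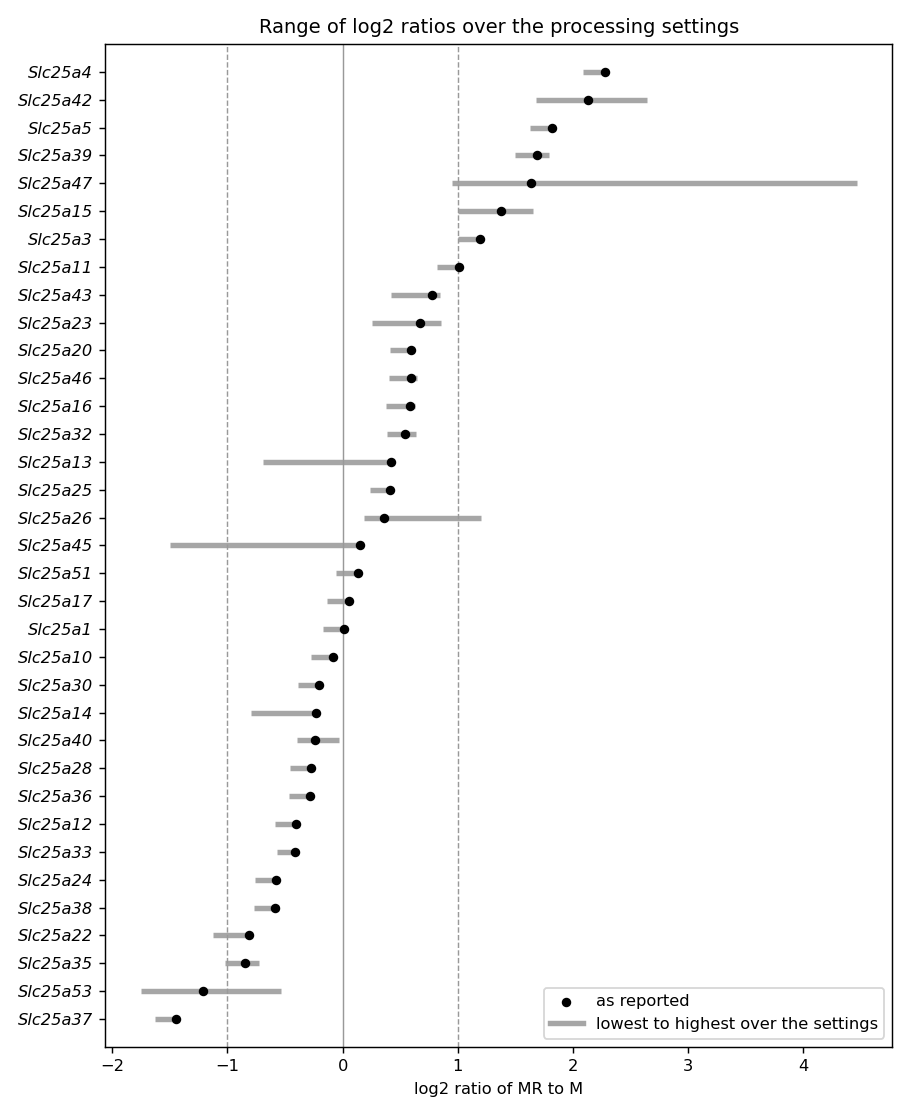
Log2 ratios of 35 of the 36 carriers under TPM with a pseudocount of 1 (points) and their ranges over the other scalings, filters and assignments (lines). None of the 10 carriers past a threshold changes sign, and Slc25a11, Slc25a47 and Slc25a53 fall inside a threshold in at least 1 setting.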

How the data were processed

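Per the labels, total RNA of 2 cultures was made into libraries with the NEB Next Ultra RNA kit. The authors trimmed reads with Trim Galore, checked them with FastQC, aligned them to mm10 with HISAT2, handled alignments with SAMtools, and ran StringTie with GENCODE vM27. Each deposited table lists coverage (signal per base, not scaled for depth), FPKM and TPM. Deposited TPM values of the assembled loci, without the named entries, reach 1000000 per library. Named entries have GRCm39 positions and were not used here. Of 19422 loci in M and 19922 in MR, 15665 and 16523 were assigned to a vM21 gene, the one with most exon bases inside (at least 50, on a compatible strand), and held 95.4% and 96.9% of the TPM. Whether the counting used strand is not given in the sources used here. A locus was treated as shared if another protein-coding gene also had 50% or more of its exon bases inside (0 carriers).

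Aligned bases came from the commonest quotient of coverage and FPKM where FPKM exceeded 5, held by 39.1% of them in M and 42.5% in MR. Read pairs were approximated from FPKM, aligned bases at 300 per pair, and the shortest coding transcript. Where a locus held fewer exon bases than that transcript, the number of pairs is too high and the interval too narrow. Ratios used a pseudocount of 1, a minimum TPM of 1 in either library, and a log2 threshold of 1. No p-values were computed. The assignment was tested on simulated data, in which each locus spanned nearly the whole of its gene on the strand of the gene. Truncated, split, merged or unstranded loci were not simulated.

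Alternatives were another pseudocount, filter, unit, scaling, assignment and threshold. Values were given for carriers past the threshold with a TPM of at least 5 or with a TPM of at least 50, for their closest relatives, and for others by choice. From each companion list at most 4 genes with a TPM of at least 5 were named by size of the log2 ratio. The values of 1 carrier and of a few listed genes are counted in the totals but not reported here. The members and lists were chosen with earlier results of these data known. RefSeq held promoters of 36 of the 47 carriers, and 9 motifs were searched. Scripts ran in Python 3.11.15 with matplotlib 3.10.9, scipy 1.17.1, pandas 2.3.3 and numpy 2.4.6.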

Additional observations from a re-analysis of the deposited data

Results flagged for a closer look

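Entries with gene names were outside the main values, because their positions refer to another genome build. For 2 of the 47 carriers these positions are the same in both annotations, and both had signal there. The named entry of Slc25a13 was listed at 14.5 TPM in M and 18.1 TPM in MR. The named entry of Slc25a51 was listed at 36.5 TPM in M and 39.7 TPM in MR. In both the higher value was in MR, as it was for the assembled loci.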

How the results depend on the processing

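The number of carriers higher in MR, the number lower in MR and the median log2 ratio were recomputed under the alternatives. Of 35 values, 30 stayed within 1.5 times the main count or within an interval of the median. That interval is no measure of replicate spread, and a median of opposite sign, -0.04 after median-of-ratios scaling, was counted as unchanged. The number of carriers lower in MR was 1 with a TPM of at least 10, 1 in FPKM and 1 with only the locus of highest TPM. With a log2 threshold of 2 the carriers numbered 2 higher (Slc25a4 and Slc25a42) and 0 lower in MR of 36, beside 5.94% higher and 3.11% lower of all genes. The median ranged from -0.04 after median-of-ratios scaling to 0.15 with no filter on low values. Of 386 values of single carriers, 28 were counted as moved. These lay beyond their counting error, except those of Slc25a47, which had no locus in M and so no counting interval. None of the 10 carriers past a threshold changed sign, and 6 of 36 carriers did, among them Slc25a13 (-0.69) and Slc25a45 (-1.50) in coverage per aligned Gb. Slc25a22 (-1.12), Slc25a26 (1.21) and Slc25a45 passed a threshold in coverage per aligned Gb, and Slc25a35 (-1.02) after median-of-ratios scaling. The cause was not tested. No paired analysis was possible because each condition had 1 library, and for the same reason no replicate could be left out. Depth limited carriers with few read pairs, such as Slc25a53 with about 12 or fewer in MR.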
